A study of Mus musculus with 4 samples.

Results

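Trdv2-2 and Trdv5 are variable segments of the T cell receptor δ chain, and colon TCRγδ intraepithelial lymphocytes (IELs) were divided by which of them left a transcript. A Trdv2-2-only cell held at least 1 Trdv2-2 UMI and 0 Trdv5 UMIs, and a Trdv5-only cell held at least 1 Trdv5 UMI and 0 Trdv2-2 UMIs. A UMI is a unique molecular identifier and stands for 1 captured transcript. Both groups were drawn from the Tcf7KO and the Tcf7WT TCRγδ library, each library apart. They hold 552 cells, 204 Trdv2-2-only and 348 Trdv5-only, of 3399 TCRγδ cells and of 16787 cells in the series. The Tcf7KO library gave 78 Trdv2-2-only and 186 Trdv5-only cells of 1511, and the Tcf7WT library gave 126 and 162 of 1888. The members were chosen by the UMIs of these 2 segments, so their levels are a description only.

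The cells came from mouse colon, sorted as live cells with CD3, the γδ receptor and CD8α, and went through a 3′ droplet kit for single cells. The cell type label names TCRγ and the title TCRγδ. The strain label E8IcreTcf7fl/fl, a floxed Tcf7 allele with a Cre recombinase under the E8I enhancer of Cd8a, stands on the Tcf7KO and on the Tcf7WT library alike, so the genotype label alone separates them, and whether Tcf7WT cells carried Cre is not given. The number, age and sex of the mice are not given either. Each genotype is 1 library, so the difference between genotypes has no replicate check and was not tested. The contrast of the segments was read in each library apart, and the libraries differ in genotype, so they are not replicates of each other. Tcf7, which encodes the transcription factor TCF-1, had 10 UMIs of 385870 in Tcf7KO Trdv2-2-only cells and 12 of 913717 in Tcf7KO Trdv5-only cells. In Tcf7WT it had 15 of 448357 in Trdv2-2-only cells and 23 of 588109 in Trdv5-only cells. The deleted part of the gene is not given in the sources used here, and a 3′ tag outside it would be no check of the labels.

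A γδ T cell receptor pairs a γ chain with a δ chain, and each chain is assembled during development by joining a variable segment to downstream segments and a constant region. Most δ variable segments lie upstream of the constant gene Trdc, within the α chain locus. Trdv5 lies downstream of Trdc in the opposite orientation and is joined by inversion. Mouse gut γδ IELs are known for a cytotoxic, epithelium-resident programme and for frequent use of the Vγ7 chain.

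In GRCm38, Trdv2-2 spans chr14:53960944-53961602 on the plus strand, Trdc spans chr14:54142851-54148868 on the plus strand, and Trdv5 spans chr14:54148662-54149294 on the minus strand, in the GENCODE M21 annotation. Trdv5 and Trdc overlap on opposite strands over 207 bases, chr14:54148662-54148868. Whether the counting used strand is not given, so reads of that stretch cannot be told apart. Trdv2-2 has a near-identical neighbour, Trdv2-1, at chr14:53946073-53946660. The second exons of both are shown because a short 3′ read can be assigned to either only through the bases that differ between them, which are in capitals. The Trdv2-2 stretch is chr14:53961304-53961602 and the Trdv2-1 stretch is chr14:53946362-53946660, both plus strand. The Trdv5 stretch is the start of its second exon, chr14:54148869-54148969 on the minus strand, up to the overlap with Trdc.
Trdv2-2: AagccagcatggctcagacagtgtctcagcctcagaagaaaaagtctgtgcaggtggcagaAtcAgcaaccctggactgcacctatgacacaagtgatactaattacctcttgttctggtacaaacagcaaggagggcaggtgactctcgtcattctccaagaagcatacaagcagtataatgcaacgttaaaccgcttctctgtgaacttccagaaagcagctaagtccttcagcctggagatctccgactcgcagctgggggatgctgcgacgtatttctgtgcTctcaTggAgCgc
Trdv2-1: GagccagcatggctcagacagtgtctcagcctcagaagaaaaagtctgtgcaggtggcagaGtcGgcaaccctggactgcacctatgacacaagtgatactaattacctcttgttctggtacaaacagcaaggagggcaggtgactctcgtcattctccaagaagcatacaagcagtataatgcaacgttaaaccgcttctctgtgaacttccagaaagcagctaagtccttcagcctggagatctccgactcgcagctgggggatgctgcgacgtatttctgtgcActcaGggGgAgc
Trdv5: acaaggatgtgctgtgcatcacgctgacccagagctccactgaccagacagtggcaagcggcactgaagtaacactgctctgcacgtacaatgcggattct
The second exons of Trdv2-2 and Trdv2-1 differ at 7 of 299 bases, an identity of 97.7%, and share a run of 221 bases. Those of Trdv2-2 and Trdv5 have an identity of 53.7% in a pairwise alignment and share no run over 9 bases. A Trdv2-1 UMI was found in 7 of 78 Tcf7KO Trdv2-2-only cells (8.97%) against 2 of 186 Tcf7KO Trdv5-only cells (1.08%). The shares were 20 of 126 (15.9%) in Tcf7WT Trdv2-2-only cells against 1 of 162 (0.617%) in Tcf7WT Trdv5-only cells. Cells with neither segment held a Trdv2-1 UMI in 0.325% of Tcf7KO and 0.504% of Tcf7WT cells, so Trdv2-1 was found with Trdv2-2 in both libraries. Levels of Trdv2-2 and Trdv2-1 are uncertain to the extent that the counting divided shared reads between them.

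Trdv2-2-only cells made up 5.16% (4.10 to 6.40) of the Tcf7KO library against 6.67% (5.59 to 7.89) of the Tcf7WT library, and Trdv5-only cells made up 12.3% (10.7 to 14.1) against 8.58% (7.36 to 9.94). The brackets are exact 95% Clopper-Pearson intervals, which like every interval here cover counting error only. With each cell thinned to 1500 UMIs, Trdv2-2-only cells were 1.41% (0.873 to 2.14) of Tcf7KO against 3.58% (2.74 to 4.60) of Tcf7WT cells, and Trdv5-only cells were 4.22% (3.26 to 5.37) against 4.61% (3.65 to 5.74). Thinning left out 19 Tcf7KO and 241 Tcf7WT cells as too shallow. In the thinned cells the intervals of the 2 genotypes overlapped for Trdv5 and did not overlap for Trdv2-2, while with all UMIs the reverse held. Thinning was a single random draw that left 21 Tcf7KO and 59 Tcf7WT Trdv2-2-only cells. The intervals treat cells of 1 library per genotype as the unit, so no difference between genotypes is read from them.

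Most members rested on a single molecule. Of the Trdv2-2-only cells, 73 of 78 in Tcf7KO and 114 of 126 in Tcf7WT held exactly 1 Trdv2-2 UMI, and of the Trdv5-only cells 156 of 186 and 139 of 162 held exactly 1 Trdv5 UMI. Neither segment was seen in 1232 Tcf7KO and 1588 Tcf7WT cells, at median depths of 4335 and 3101.5 UMIs. Both segments were seen in 15 Tcf7KO and 12 Tcf7WT cells, and the product of the shares with each segment gives 12.4 and 12.7. TCRβ-sorted cells, which should lack both segments, held a Trdv2-2 UMI in 0.882% of 5785 Tcf7KO and 0.829% of 7603 Tcf7WT cells, at median depths of 2860 and 2431 UMIs. They held a Trdv5 UMI in 0.0519% and 0.158%. The shares in the TCRγδ libraries stood above these levels for both segments.

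**Figure D1:**
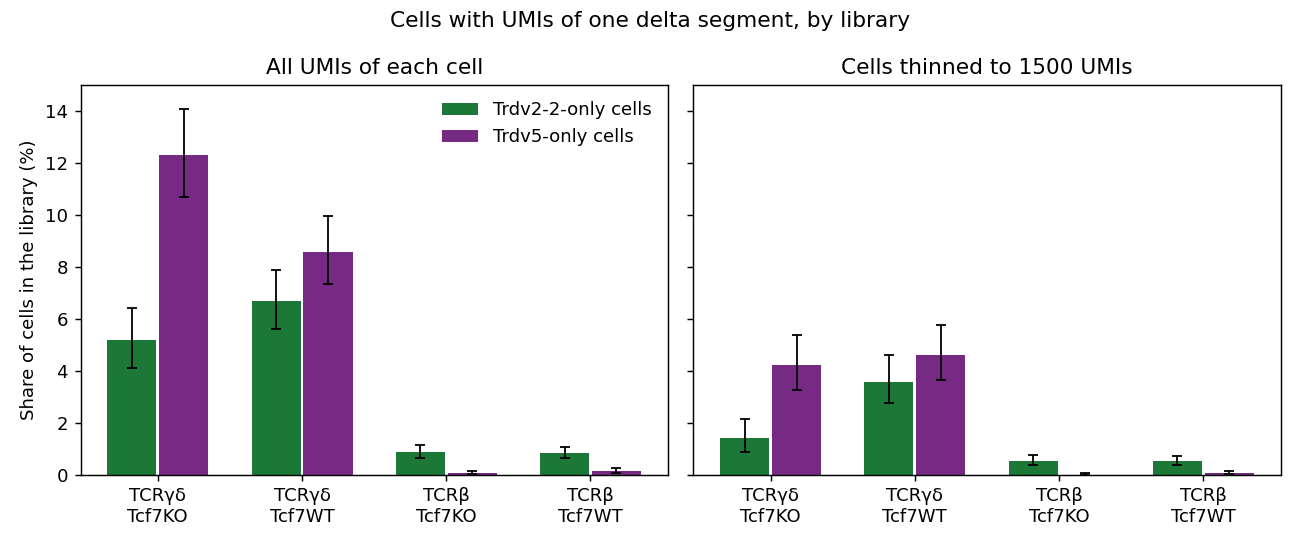
Share of cells (%, vertical axis) that were Trdv2-2-only (green) or Trdv5-only (purple) in each of the 4 libraries, with exact 95% intervals, over all UMIs (left) and with each cell thinned to 1500 UMIs (right). Both groups lie between 5.16% and 12.3% in the TCRγδ libraries and under 1% in the TCRβ libraries, and thinning brings the Tcf7KO and Tcf7WT Trdv5-only shares to 4.22% and 4.61%.

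The ratio of Trdv2-2 to Trdc transcripts set the sorts apart. The Tcf7KO and Tcf7WT TCRγδ libraries held 0.745 and 1.25 Trdv2-2 UMIs per 100 Trdc UMIs, while the TCRβ libraries held 22.6 and 23.0, from 61 and 72 Trdv2-2 UMIs. For Trdv5 the values were 1.77 and 1.66 in TCRγδ against 1.11 and 3.83 in TCRβ cells, from 3 and 12 Trdv5 UMIs. Free Trdv2-2 RNA from TCRγδ cells was not tested as a source of the TCRβ counts.

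The groups matched in depth within each library. Median UMIs per cell were 4700.5 in Tcf7KO Trdv2-2-only and 4526 in Tcf7KO Trdv5-only cells, and 3484.5 and 3507.5 in the Tcf7WT groups. Summed UMIs were 385870 and 913717 in Tcf7KO and 448357 and 588109 in Tcf7WT. Markers of CD8α+ γδ T cells were present in all 4 groups. In CPM, a gene's UMIs per 1000000 UMIs of the group, Trdc stood at 2071, 2207, 1731 and 2032 in Tcf7KO Trdv2-2-only, Tcf7KO Trdv5-only, Tcf7WT Trdv2-2-only and Tcf7WT Trdv5-only cells, Cd3e at 2257, 2141, 1650 and 1799, and Cd8a at 2097, 1887, 1662 and 1546. Cd8b1, the CD8β chain of conventional CD8 T cells, was at 0 in both Tcf7KO groups and at 4.46 and 5.10 CPM in the Tcf7WT groups. Of 22 epithelial markers, 12, 7, 7 and 9 were at 0 in the same order, and their summed level was 270 and 277 CPM in Tcf7KO and 227 and 267 CPM in Tcf7WT, mostly Epcam. The TCRγδ libraries shared 1 cell barcode.

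The γ chain segments beside each δ segment were set side by side, since a receptor needs both chains. Tcrg-V7, the Vγ7 segment, had a UMI in 7 of 78 Tcf7KO Trdv2-2-only cells (8.97%, 3.68 to 17.6) and 19 of 186 Tcf7KO Trdv5-only cells (10.2%, 6.26 to 15.5). In Tcf7WT it had a UMI in 5 of 126 Trdv2-2-only (3.97%, 1.30 to 9.02) and 15 of 162 Trdv5-only cells (9.26%, 5.28 to 14.8), and these intervals overlap. TCRβ cells held a Tcrg-V7 UMI in 0.501% of Tcf7KO and 0.750% of Tcf7WT cells. Trgv2 had a UMI in 59.0%, 60.8%, 54.8% and 56.2% of cells of the 4 groups, and Tcrg-V1 in 10 of 78, 26 of 186, 36 of 126 and 43 of 162 cells. TCRβ cells came close to these, with Trgv2 in 51.2% and 42.4% and Tcrg-V1 in 17.8% and 20.1% of cells, so neither segment can be read as receptor use. No γ segment with at least 20 UMIs had an interval of its Trdv2-2-only to Trdv5-only ratio without 0.

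Among constant genes, Trdc itself was lower in Trdv2-2-only than in Trdv5-only cells of Tcf7WT (log2 ratio -0.23, -0.36 to -0.10), and in Tcf7KO the interval held 0 (-0.09, -0.21 to 0.03). Trdc overlaps Trdv5, by which members were chosen, and strand use is not given. The Trdc ratio is therefore not independent of the grouping and is a description only. Trbc2, a β chain constant gene, was higher in both libraries, with log2 ratios of 0.19 (0.03 to 0.35) and 0.31 (0.14 to 0.47). Its level was 1285 and 1127 CPM in Tcf7KO and 1280 and 1036 CPM in Tcf7WT. Cells with a Trbc2 UMI were similarly frequent in Trdv2-2-only and Trdv5-only cells (Tcf7KO 97.4% and 96.2%, Tcf7WT 90.5% and 90.7%). Trbc1, another β chain constant gene, was not higher. Its Tcf7KO ratio was -0.03 with bounds -0.22 and 0.15, and its Tcf7WT ratio was -0.17 with bounds -0.42 and 0.08. The rise was therefore seen for Trbc2 alone and not for β chain constant genes as a set. Transcripts of Trac, the α chain constant gene, were found in 70.5% and 73.7% of the Tcf7KO groups and 69.8% and 62.3% of the Tcf7WT groups. They ranged little in level, from 432 to 460 CPM over the 4 groups. Epithelial-like cells of these libraries held a Trac UMI in 0 of 18 cells each, which allows a share of cells with a UMI of up to 16.7% (3 of 18 cells), at median depths of 23409 UMIs in Tcf7KO and 2558.5 UMIs in Tcf7WT.

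Across genes, the contrast between the segments was small and mostly did not recur. A ratio is the CPM of Trdv2-2-only cells over that of Trdv5-only cells, on the log2 scale, with an exact 95% interval conditional on both counts. In Tcf7KO 160 of 4550 genes with at least 50 UMIs over both groups were at least 1.5-fold higher (3.52%) and 249 at least 1.5-fold lower (5.47%). In Tcf7WT 127 of 3932 were higher (3.23%) and 163 lower (4.15%). Of 3805 genes that met the minimum in both libraries, 7 were higher in both (0.184%) and 22 lower in both (0.578%), while 6 (0.158%) and 5 (0.131%) lay past 1.5-fold in opposite directions. Over 3804 of these genes with finite ratios, 1933 had the same sign in both libraries (50.8%), and the correlation of the ratios was 0.08 by Pearson and 0.06 by Spearman. These are values across genes of 2 libraries, and genes are not replicates. Over the 844 genes with at least 200 UMIs the same sign was found in 48.9%.

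**Figure D2:**
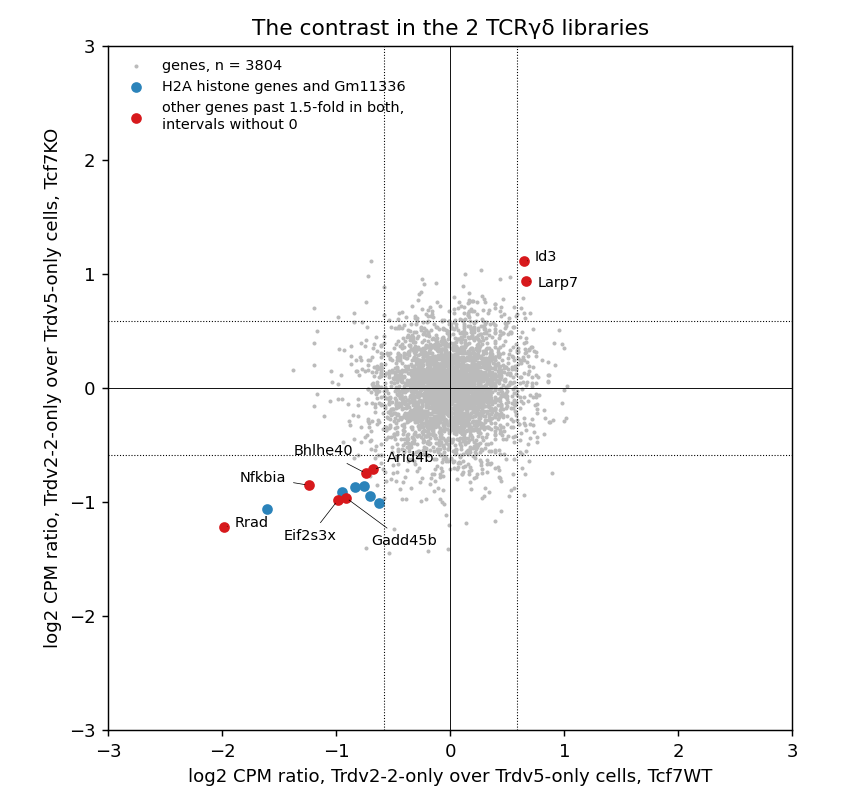
Log2 CPM ratio of Trdv2-2-only over Trdv5-only cells in Tcf7WT (horizontal) and Tcf7KO (vertical) for 3804 genes with at least 50 UMIs in each library, with dotted lines at 1.5-fold. The cloud has little slant (Pearson r 0.08), and the 14 coloured genes are past 1.5-fold in the same direction in both with intervals without 0, blue for H2A histone genes and Gm11336.

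The set that recurred was led by genes lower in Trdv2-2-only cells. With the further demand of an interval without 0, 67 genes were higher (1.47%) and 104 lower (2.29%) in Tcf7KO, and 59 higher (1.5%) and 85 lower (2.16%) in Tcf7WT. In both libraries at once, Larp7 and Id3 were higher (0.0526% of 3805 genes) and 12 genes were lower (0.315%). The 12 were Nfkbia, Gadd45b, Arid4b, Bhlhe40, Rrad, Eif2s3x, 5 genes of histone H2A (Hist1h2ac, Hist1h2ag, Hist1h2an, Hist1h2ap and Hist2h2aa2) and Gm11336. This demand was added after the data were seen. A fit over the 4 group sums with the library as a block, also added then and with 1 residual degree of freedom, gave counts that depended on the tool. At a Benjamini-Hochberg adjusted p under 0.05, edgeR's quasi-likelihood test called 2 genes higher (0.0526%) and 19 lower (0.499%), and DESeq2 called 0 in either direction, with 1 higher and 16 lower at an unadjusted p under 0.05. The 19 included Rrad, Gm11336 and H2A histone genes, for which single cells held a large share of the Trdv5-only UMIs. For Hist1h2an 1 cell held 40.5% in Tcf7KO and 55% in Tcf7WT, and for Gm11336 43.6% and 59.1%. The fit used group sums and took no account of this. In opposite directions in the 2 libraries, 2 genes (0.0526%) and 2 genes (0.0526%) were past 1.5-fold with an interval without 0. Without the deepest cell of each group, the count lower in both libraries at 1.5-fold alone was 14 in place of 22, and without cells with at least 3 proliferation genes it was 13. The genes described next were named by a rule that ranks same-sign genes by the interval bound nearest 0, and Id3 was named through its list of transcription factors. Gadd45b, Rrad, the H2A histone genes and Gm11336 fall outside the rule and were picked with their values known. For Rrad, 28.8% of the Tcf7KO and 61.5% of the Tcf7WT Trdv5-only UMIs came from 1 cell.

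Nfkbia, which encodes IκBα, the inhibitor that holds NF-κB in the cytoplasm and is itself induced by NF-κB, was the first of the lower genes in this ranking. It stood at 143 CPM (55 UMIs in 32 of 78 cells) in Tcf7KO Trdv2-2-only cells, against 257 CPM (235 UMIs in 95 of 186 cells) in Tcf7KO Trdv5-only cells. It stood at 107 CPM (48 UMIs in 32 of 126 cells) in Tcf7WT Trdv2-2-only cells, against 253 CPM (149 UMIs in 60 of 162 cells) in Tcf7WT Trdv5-only cells. Both Trdv2-2-only groups lay below both Trdv5-only groups and below the cells with neither segment, which held 281 CPM in Tcf7KO and 203 CPM in Tcf7WT. The log2 ratios were -0.85 (-1.30 to -0.42) in Tcf7KO and -1.24 (-1.74 to -0.76) in Tcf7WT. The Tcf7KO ratio changed sign under 2 stricter choices of members, which left few cells. Ratios under these choices are given here and below without intervals, and sampling of few UMIs was not tested as their source. It was 0.55 with at least 2 UMIs of the own segment (5 and 30 cells) and 0.58 when cells were thinned to 1500 UMIs before grouping (21 and 63 cells), against -0.76 and -0.63 in Tcf7WT.

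Tnfaip3, which encodes A20, a ubiquitin-editing brake on NF-κB signalling, stood at 249 and 488 CPM in Tcf7KO Trdv2-2-only and Trdv5-only cells and at 350 and 457 CPM in the Tcf7WT groups. Its log2 ratios were -0.97 (-1.31 to -0.65) and -0.39 (-0.68 to -0.10), and in Tcf7KO they were 0.23 and 0.12 under the 2 stricter choices of members. Gadd45b, a stress-inducible NF-κB target, stood at 67.4 and 131 CPM in Tcf7KO and 109 and 206 CPM in Tcf7WT, with ratios of -0.96 (-1.63 to -0.34) and -0.91 (-1.42 to -0.42). In Tcf7KO 26.9% of the Trdv2-2-only UMIs of Gadd45b, and in Tcf7WT 28.1% of the Trdv5-only UMIs, came from 1 cell. All 3 genes were thus lower in Trdv2-2-only cells of each library as the members were defined.

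Rgs1, a regulator of G protein signalling that is abundant in gut T cells, stood at 5707 and 6940 CPM in the Tcf7KO groups and 3928 and 5011 CPM in the Tcf7WT groups. Its ratios of -0.28 (-0.35 to -0.21) and -0.35 (-0.44 to -0.27) were small, and their intervals lay below 0. Vps37b, a subunit of the ESCRT-I sorting complex, had 1081 and 1320 CPM in Tcf7KO and 495 and 697 CPM in Tcf7WT, and Junb, a subunit of AP-1, had 1638 and 1944 CPM in Tcf7KO and 1398 and 1670 CPM in Tcf7WT. Cells with neither segment lay between the groups for Rgs1 (6894 CPM in Tcf7KO and 4646 CPM in Tcf7WT) and Junb (1872 and 1566 CPM). For Vps37b they stood at 1331 CPM in Tcf7KO, above both groups, and at 649 CPM in Tcf7WT, between them. Under the 2 stricter choices of members the Tcf7KO ratios were 0.92 and 0.22 for Rgs1, 0.03 and 0.39 for Vps37b, and -0.29 and -0.36 for Junb, so only Junb of these 3 kept its sign.

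Arid4b, a subunit of SIN3 histone deacetylase complexes, stood at 176 and 289 CPM in Tcf7KO and 203 and 325 CPM in Tcf7WT, with ratios of -0.71 (-1.12 to -0.32) and -0.68 (-1.05 to -0.31). As with Nfkbia, its Tcf7KO ratio changed sign under the stricter choices of members, to 0.28 and 0.58. Bhlhe40, a transcription factor of tissue-resident T cells, stood at 95.9 and 161 CPM in Tcf7KO and 58.0 and 96.9 CPM in Tcf7WT, with ratios of -0.75 and -0.74. Eif2s3x, the X-linked γ subunit of translation initiation factor eIF2, had ratios of -0.99 in both libraries on 15 to 75 UMIs a group. Pik3r1, the p85α regulatory subunit of PI3 kinase, had ratios of -0.30 and -0.62, Hist1h1c, a linker histone, had -0.66 and -0.46, Arrdc4, an α-arrestin, had -0.43 and -0.54, and Ifrd1, a transcriptional coregulator, had -0.47 and -0.94. The interval of each of these lay below 0 in each library. With at least 2 UMIs of the own segment the Tcf7KO ratio was 1.04 for Pik3r1 and 0.87 for Arrdc4. The Tcf7WT ratio of Hist1h1c was 0.17 with cells thinned after grouping, 0.54 when thinned before grouping, and 0.05 among cells with a Gzma UMI.

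The genes higher in Trdv2-2-only cells of both libraries numbered 7 at 1.5-fold, 15 with each cell weighing the same, and 1, against 0 lower, when cells were thinned before grouping. Cd160, a surface receptor of NK cells and IELs, stood at 352 and 223 CPM in Tcf7KO and 640 and 508 CPM in Tcf7WT, with ratios of 0.66 (0.33 to 0.98) and 0.33 (0.09 to 0.57). The Cd160 ratio was -0.15 in Tcf7KO with at least 2 UMIs of the own segment and -0.12 in Tcf7WT among cells with a Gzma UMI. Larp7, a protein that binds the 7SK RNA, stood at 153 and 79.9 CPM in Tcf7KO and 103 and 64.6 CPM in Tcf7WT, with ratios of 0.94 (0.42 to 1.45) and 0.67 (0.02 to 1.33). Without cells with 2 or more markers of other types (43 and 105 cells left), the Tcf7KO ratio of Larp7 was 0.025.

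Id3, an inhibitor of E-protein transcription factors in T cell development, stood at 80.3 and 37.2 CPM in Tcf7KO and 165 and 105 CPM in Tcf7WT, with ratios of 1.11 (0.36 to 1.86) and 0.65 (0.14 to 1.16). Single cells carried much of it, with 29.0% of the Tcf7KO and 32.4% of the Tcf7WT Trdv2-2-only UMIs in 1 cell. Cst7, which encodes cystatin F, an inhibitor of cathepsins in cytotoxic cells, had ratios of 0.35 and 0.33 on 500 and 393 CPM in Tcf7KO and 379 and 303 CPM in Tcf7WT. With at least 2 UMIs of the own segment the Tcf7KO ratio of Cst7 was -0.27. Other genes the rule named had smaller ratios, Ccl5 (0.05 and 0.07), Gzmb (0.05 and 0.16), H2-K1 (0.06 and 0.16), Hsp90ab1 (0.06 and 0.13), Cd8a (0.15 and 0.10), Gimap4 (0.12 and 0.18), Ptp4a2 (0.24 and 0.21) and Ctsb (0.32 and 0.42) in Tcf7KO and Tcf7WT. Of the 11 higher genes of the ranking reported here, which do not include Id3, the interval held 0 in Tcf7KO for Gzmb, H2-K1, Ctsb, Hsp90ab1 and Gimap4, and in Tcf7WT for Ptp4a2 and Cd8a.

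**Figure D3:**
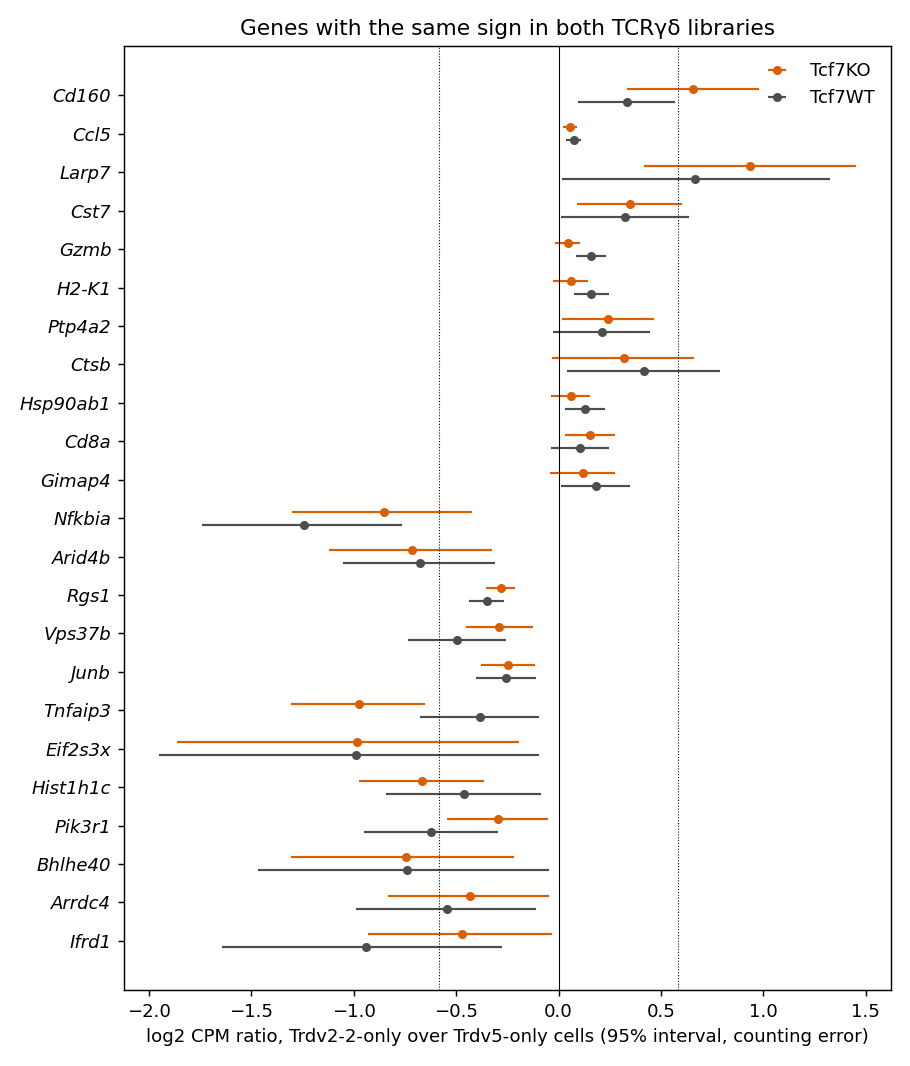
Log2 CPM ratio of Trdv2-2-only over Trdv5-only cells with its 95% counting interval in Tcf7KO (orange) and Tcf7WT (grey) for 11 of the 12 highest and the 12 lowest genes with the same sign in both libraries. Genes are ranked by the interval bound nearest 0, by which Nfkbia is the first of the lower genes. Nfkbia lies at -0.85 and -1.24, Tnfaip3 at -0.97 and -0.39, and Larp7 at 0.94 and 0.67, while Ccl5 and H2-K1 sit close to 0.

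Because Nfkbia, Tnfaip3 and Gadd45b stood together, 28 genes of the NF-κB pathway and its targets were collected after their values were seen, and they are described only. In each library 25 had at least 20 UMIs. In Tcf7KO 4 of them (Nfkbia, Tnfaip3, Gadd45b and Relb) were at least 1.5-fold lower and 1 higher, beside 9.96% lower and 7.73% higher among all 7260 genes with at least 20 UMIs, and their median was -0.27. In Tcf7WT 5 (Nfkbia, Gadd45b, Bcl2a1b, Nfkbid and Rel) were lower and 1 higher, beside 8.75% and 8.21% among 6869 genes, with a median of -0.28. The genes that prompted the list are among those counted, so nothing is read from these counts. The median of all genes was 0.00 in each library. Summed over the list, Trdv2-2-only cells held 2698 CPM against 3238 CPM in Trdv5-only and 3182 CPM in neither-segment cells of Tcf7KO, and 3328 CPM against 4071 and 3208 CPM in Tcf7WT. In Tcf7WT 1 Trdv5-only cell held 369 list UMIs, 15.4% of its group, and without the top cell of each group the summed ratio was -0.13 (-0.23 to -0.03) in place of -0.29 (-0.38 to -0.20). In Tcf7KO it was -0.27 in place of -0.26.

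Members had mixed signs. The inhibitors Nfkbia and Tnfaip3 were lower in both libraries, and so was the chemokine Ccl4 (-0.43 and -0.38, 397 and 534 CPM in Tcf7KO, 732 and 954 CPM in Tcf7WT). The other inhibitors had intervals that held 0 in each library, with ratios in Tcf7KO and Tcf7WT of -0.42 and 0.39 for Nfkbie, 0.22 and -0.14 for Nfkbiz, -0.08 and -0.29 for Nfkbib, 0.05 and -1.02 for Nfkbid, and -0.43 and 0.13 for Tnip1. The prosurvival gene Bcl2a1d had a ratio of -0.35 with an interval that held 0 in Tcf7KO and was lower in Tcf7WT (-0.49, -0.83 to -0.15). In Tcf7WT 41.5% of the Trdv5-only UMIs of Ccl4 came from 1 cell. Of the subunits, Nfkb1 was higher in Tcf7KO (0.71, 0.15 to 1.25) and stood at 0.12 (-0.53 to 0.77) in Tcf7WT, Rel was 0.58 (-0.09 to 1.22) in Tcf7KO and lower in Tcf7WT (-0.77, -1.51 to -0.07), and Rela was -0.27 and -0.21 with intervals that held 0. Irf1, an interferon-induced target, was 0.28 (-0.18 to 0.72) in Tcf7KO and higher in Tcf7WT (0.54, 0.16 to 0.93). In single cells, the list's median share was 23.9 and 26.1 UMIs per 10000 in the Tcf7KO groups and 27.9 and 31.1 in the Tcf7WT groups.

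The histone result rested on single cells. The 16 listed H2A symbols (Hist1h2a, Hist2h2a and Hist3h2a), core histones made mostly in S phase, were collected after their values were seen. At least 20 UMIs were found for 12 in Tcf7KO and 11 in Tcf7WT, and 10 and 9 of them were at least 1.5-fold lower, beside 9.96% and 8.75% of all genes at that minimum. Their summed level was 1068 CPM in Tcf7KO Trdv2-2-only against 1952 CPM in Tcf7KO Trdv5-only cells, and 879 against 1503 CPM in Tcf7WT. In Tcf7KO 1 Trdv5-only cell held 675 of the H2A UMIs among its 16709 UMIs, 37.8% of the group, and in Tcf7WT 1 Trdv5-only cell held 454 among 14123, 51.4% of the group. Without the top cell of each group the levels were 1018 and 1236 CPM in Tcf7KO, a log2 ratio of -0.28 (-0.45 to -0.11), and 700 and 749 CPM in Tcf7WT, -0.10 (-0.31 to 0.12). That Tcf7KO ratio still included a second Trdv5-only cell of weight, with 444 H2A UMIs among its 15834 UMIs. The ratio without both cells was not computed, so no lower H2A level in the remaining Tcf7KO cells is read from -0.28. In Tcf7KO the medians of single cells went the other way. The median cell held 8.43 H2A UMIs per 10000 in Tcf7KO Trdv2-2-only and 4.90 in Tcf7KO Trdv5-only cells, and 3.17 and 4.11 in the Tcf7WT groups. Hist1h2 genes are near-identical copies, and how the counting divided reads among them is not given.

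**Figure D4:**
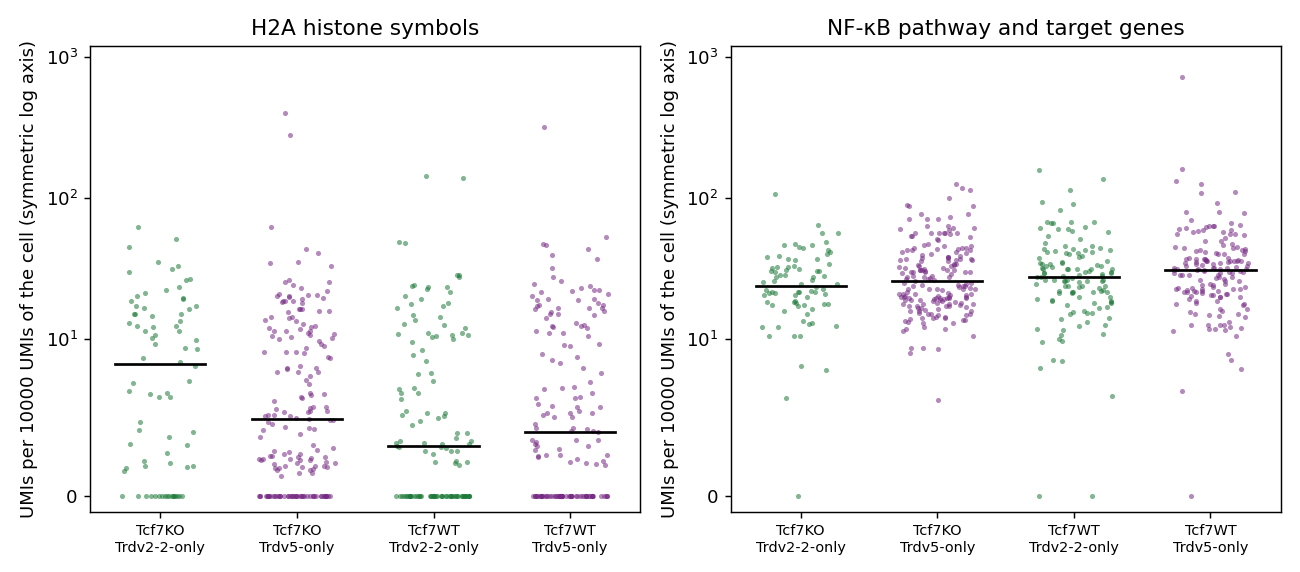
UMIs of the H2A histone symbols (left) and of the NF-κB list (right) per 10000 UMIs of each cell, on a symmetric log axis, with 1 point per cell and a black line at the median of each group. The highest H2A values are single Trdv5-only cells at 404 in Tcf7KO and 321 in Tcf7WT, and the NF-κB medians lie between 23.9 and 31.1 in all 4 groups.

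The list of cell cycle genes had medians below 0, again with single cells of weight. Its minimum was set on the sum of both groups, and in Tcf7KO a member met it with no UMI in Trdv2-2-only cells. The counts and medians are therefore descriptions only. Of 24 genes, 14 in Tcf7KO and 11 in Tcf7WT had at least 20 UMIs, 8 and 4 were at least 1.5-fold lower and 0 higher, beside 9.96% and 8.75% lower among all genes at that minimum, and the medians were -1.53 and -0.53. Top2a, a topoisomerase of dividing cells, had 5 UMIs of 385870 in Tcf7KO Trdv2-2-only cells and 57 of 913717 in Tcf7KO Trdv5-only cells. In Tcf7WT it had 12 of 448357 and 26 of 588109. In the Trdv5-only groups 42.1% of the Tcf7KO and 53.8% of the Tcf7WT Top2a UMIs came from 1 cell. Cells with at least 3 of 15 proliferation genes were 2 of 78 (2.56%) and 5 of 186 (2.69%) in Tcf7KO, and 1 of 126 (0.794%) and 4 of 162 (2.47%) in Tcf7WT. Without those cells, a choice added after the data were seen, the Tcf7KO median was 0.14, so it did not stay below 0.

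Genes of the cytotoxic programme had medians close to 0. Of 18 granule genes, 16 in Tcf7KO and 17 in Tcf7WT had at least 20 UMIs, 1 was at least 1.5-fold higher in each, 2 and 0 were lower, and the medians were -0.01 and -0.02. Among all genes at that minimum 7.73% and 8.21% were higher and 9.96% and 8.75% lower. Gzma, which encodes granzyme A, stood at 18820 and 19792 CPM in the Tcf7KO groups and 15760 and 14368 CPM in the Tcf7WT groups, with ratios of opposite sign (-0.07, -0.11 to -0.03, and 0.13, 0.09 to 0.18). Gzmb, which encodes granzyme B, stood at 8171 and 7918 CPM in Tcf7KO and 6214 and 5558 CPM in Tcf7WT. Nkg7, a granule membrane protein, stood at 2607 and 2467 CPM in Tcf7KO and at 1965 and 2023 CPM in Tcf7WT. Gzmc, a further granzyme, was lower in Tcf7KO (-0.97, -1.77 to -0.24, on 19 and 88 UMIs) and had a ratio of 0.28 (-0.39 to 0.95) in Tcf7WT.

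Of 12 NK receptor genes of the Ly49 family, 3 had at least 20 UMIs in Tcf7WT, and all 3 were at least 1.5-fold lower in Trdv2-2-only cells. The share lower among all genes at that minimum was 8.75%. For 1 of the 3, Klra6, the interval held 0 (-1.19, -2.82 to 0.20). The minimum was set on the sum of both groups, and Klra7 met it through Trdv5-only cells alone. The count and the Tcf7WT median of this list are therefore descriptions only. In Tcf7KO 4 Ly49 genes had 20 UMIs and 1 was lower, beside 9.96% of all genes, with a median of 0.01. Klra7 had 0 UMIs in 126 Tcf7WT Trdv2-2-only cells against 60 UMIs in 14 of 162 Tcf7WT Trdv5-only cells, a log2 ratio whose interval lies below -3.59. In Tcf7KO it had 24 UMIs in 4 of 78 Trdv2-2-only cells and 61 UMIs in 11 of 186 Trdv5-only cells, 62.2 and 66.8 CPM. Klra5 stood at 205 and 357 CPM in the Tcf7WT groups, a ratio of -0.80 (-1.17 to -0.44), and at 873 and 804 CPM in the Tcf7KO groups, 0.12 (-0.07 to 0.31). The summed Ly49 level was 982 and 916 CPM in Tcf7KO and 227 and 558 CPM in Tcf7WT. Ly49 genes are expressed clonally and form a family of related genes. The Klra5 ratio of Tcf7WT was 1.95 among the 5 and 15 cells with a Tcrg-V7 UMI. Of 17 genes listed with the NKG2, CD94 and NKR-P1 receptors, 6 and 7 had at least 20 UMIs, and the medians were 0.06 and 0.00. Cd160, which was put in the same list, was past 1.5-fold in Tcf7KO, beside 7.73% of all genes higher.

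Cytokine and chemokine genes gave further single-library differences. Ifng, which encodes interferon-γ, had 6 and 11 UMIs in the Tcf7KO groups and stood at 248 and 102 CPM in the Tcf7WT groups (111 UMIs in 29 of 126 and 60 UMIs in 24 of 162 cells), a Tcf7WT ratio of 1.28 (0.81 to 1.76). Xcl1, a chemokine that attracts cross-presenting dendritic cells, stood at 2125 and 2139 CPM in Tcf7KO (-0.01, -0.13 to 0.11) and at 1416 and 2340 CPM in Tcf7WT (-0.72, -0.86 to -0.59). The Tcf7WT ratio of Xcl1 was 0.07 among cells without a Thy1 UMI and -1.22 among cells with a Gzma UMI, so it depended on which cells were compared. Ccl5, an abundant chemokine of IELs, stood at 24796 and 23870 CPM in Tcf7KO and 26144 and 24851 CPM in Tcf7WT. Of 14 genes in this list, 0 and 1 were at least 1.5-fold higher and 0 and 1 lower among the 7 and 9 with at least 20 UMIs, beside 7.73% and 8.21% higher and 9.96% and 8.75% lower of all genes.

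Other genes were named for 1 library. In Tcf7KO, Tgtp1, an interferon-inducible GTPase (1.04, 0.47 to 1.60), Ctla2b (1.11, 0.36 to 1.86), Trmt6, a subunit of a tRNA methyltransferase (0.95, 0.35 to 1.55), and Hspa9, a mitochondrial chaperone (0.88, 0.34 to 1.42), were higher, and in Tcf7WT they stood at 0.27, -0.69, -0.25 and -0.58 with intervals that held 0. Nr4a1, an orphan nuclear receptor induced by T cell receptor signals (-1.43, -2.40 to -0.58), Ubfd1 (-1.41) and Pank2, a pantothenate kinase (-1.41), were lower in Tcf7KO, and stood at -0.19, -0.74 and -0.02 in Tcf7WT, with intervals that held 0. Ubfd1 was past 1.5-fold in both. In Tcf7WT, Nufip2 (0.86), Psmd7, a proteasome subunit (0.92), Txnip, an α-arrestin that restrains glucose uptake (0.67), and Cited2, a transcriptional coregulator (0.86), were higher, and Myo1e, a class I myosin (-1.19), was lower. None of these 5 had an interval without 0 in Tcf7KO. The differences between the libraries in these ratios were not tested.

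Surface and signalling genes of conventional T cells had a median above 0 in Tcf7WT. Of 17, 11 had at least 20 UMIs in Tcf7WT, 3 were at least 1.5-fold higher and 0 lower, beside 8.21% and 8.75% of all genes at that minimum, and the median was 0.36. The 3 were Cd6 (17 and 9 UMIs), Themis (14 and 12) and Il7r (14 and 8), all near the minimum, which was set on the sum of both groups. The intervals of Themis (-0.61 to 1.86) and Il7r (-0.15 to 2.66) held 0, so nothing is read from this count. In Tcf7KO 9 were measured, 1 was higher and 0 lower, beside 7.73% and 9.96%, and the median was 0.03. Thy1, the surface marker CD90, stood at 57.0 and 20.8 CPM in the Tcf7KO groups, from 9 of 78 and 8 of 186 cells, a ratio of 1.46 (0.50 to 2.42). It stood at 281 and 216 CPM in the Tcf7WT groups, from 57 of 126 and 65 of 162 cells, a ratio of 0.38 (0.01 to 0.75). Cd247, the ζ chain of the receptor complex, belongs to another list, of signalling adaptors and Fc receptor chains. It stood at 220 and 149 CPM in Tcf7KO and 256 and 207 CPM in Tcf7WT, with ratios of 0.57 (0.16 to 0.97) and 0.31 (-0.07 to 0.69). That list had 9 genes measured in each library and medians of 0.07 and -0.10. In Tcf7WT 2 of them, Fcer1g and Tyrobp, had intervals below 0 and 0 had intervals above it. In Tcf7KO 0 had intervals below 0 and 2 had intervals above it.

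Metabolic, residency, survival and activation lists are given by their medians, beside 0.00 over all genes, and by counts to be read beside the shares of all genes above. Oxidative phosphorylation (23 genes measured in each library) had medians of 0.06 and 0.02 with 0 genes past 1.5-fold, the GIMAP GTPases (8 genes) 0.04 and 0.19 with 0 past it, and epithelial retention and residency genes (17 and 18) -0.06 and -0.03 with 0 and 2 higher and 2 and 2 lower. In the residency list Cxcr6, a chemokine receptor of resident T cells, was lower in Tcf7KO (-0.75, -1.13 to -0.39) and had a ratio of -0.14 (-0.55 to 0.26) in Tcf7WT. Immediate-early genes (17 each) had medians of -0.06 and -0.10, and Jun, an AP-1 subunit, was higher in Tcf7WT (0.37, 0.27 to 0.48, at 3236 and 2503 CPM) and at -0.11 (-0.26 to 0.04) in Tcf7KO. Glycolysis genes (13 and 12) had medians of 0.09 and -0.14, BCL-2 family genes (11 each) -0.14 and -0.27 with 0 and 1 higher and 1 and 3 lower, and interferon response genes (17 and 16) -0.18 and 0.16. Of 17 type 17 genes, 1 and 0 had at least 20 UMIs, so that programme was not measurable at this depth.

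**Figure D5:**
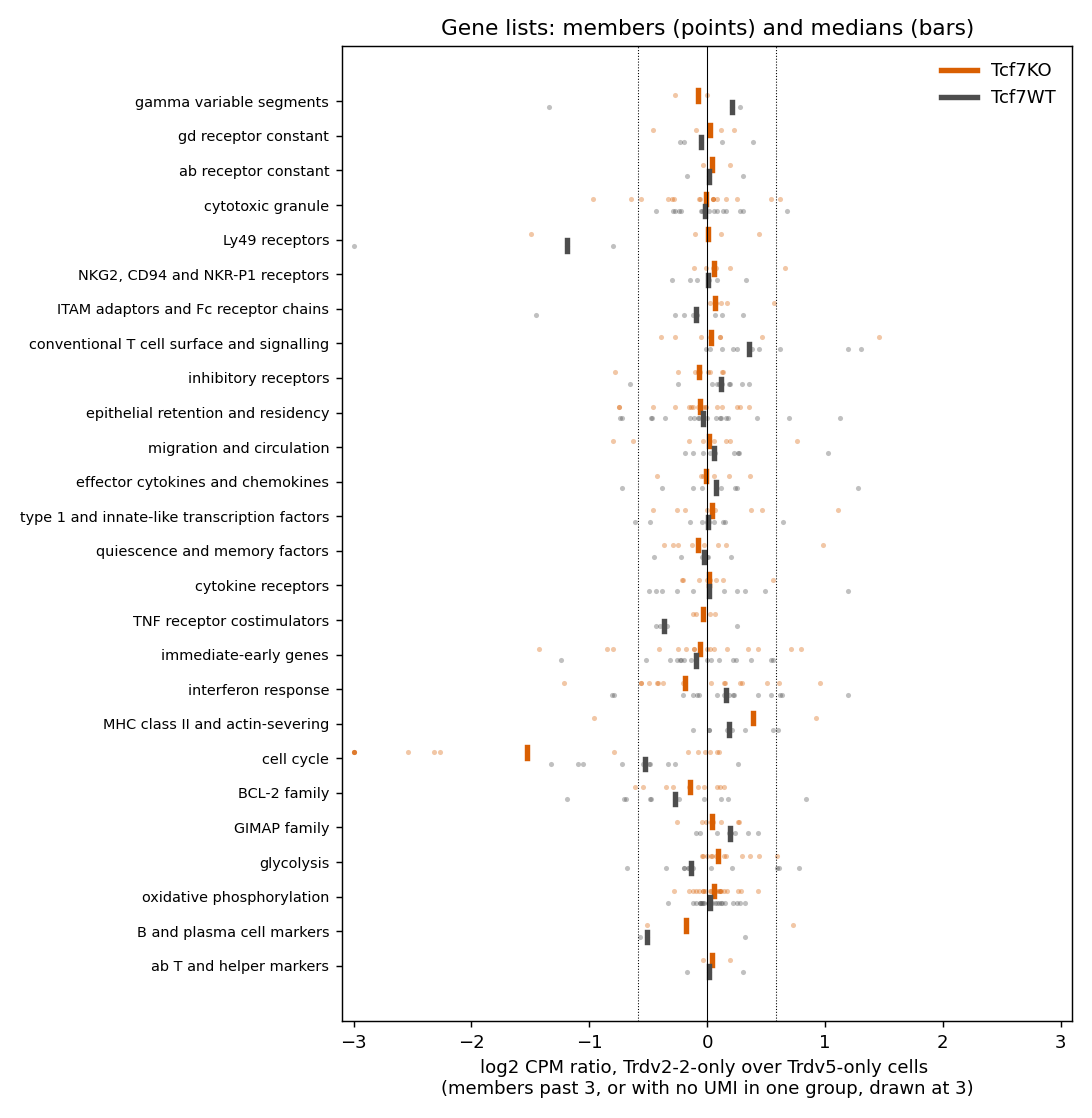
Log2 CPM ratio of Trdv2-2-only over Trdv5-only cells for members with at least 20 UMIs (points) and the median (bar) of each gene list with at least 3 measured members, in Tcf7KO (orange) and Tcf7WT (grey). The cell cycle medians lie at -1.53 and -0.53 and the Ly49 median of Tcf7WT, over 3 genes, at -1.19, while those of oxidative phosphorylation lie at 0.06 and 0.02.

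The genotype contrast was also read within each segment group. Tcf7KO Trdv2-2-only cells had 218 of 3242 genes at least 1.5-fold higher (6.72%) and 236 lower (7.28%) than Tcf7WT Trdv2-2-only cells, and Tcf7KO Trdv5-only cells had 272 of 5069 higher (5.37%) and 285 lower (5.62%) than Tcf7WT Trdv5-only cells. Of the genes below, all but Tnfaip3 had the same sign in both groups. Thy1 had log2 ratios of Tcf7KO over Tcf7WT of -2.30 in Trdv2-2-only and -3.38 in Trdv5-only cells, Ifng -3.99 and -3.08, Id3 -1.04 and -1.50, and Cd160 -0.86 and -1.19. Klra5 had 2.09 and 1.17, Vps37b 1.13 and 0.92, Rgs1 0.54 and 0.47, and Bhlhe40 0.73 and 0.73. Nfkbia had 0.41 and 0.02, and Tnfaip3 had -0.49 and 0.09. These are differences between 2 libraries and cannot be told apart from any other difference between them.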

How the data were processed

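Single cells were profiled with a droplet 3′ kit (version 2), per the labels' protocols. The deposited values are raw UMI counts per gene and cell; the submitters' processing notes name Seurat 3.0.0, GRCm38 and mm10, with no role stated, and the aligner and cell filters are not given in the sources used here. Of 4 libraries, the 2 TCRγδ libraries (7184668 UMIs in Tcf7KO and 6195292 in Tcf7WT) were used for every comparison, and the TCRβ libraries only for background shares.

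Here, cells were grouped by Trdv2-2 and Trdv5 UMIs, counts were summed per group and library, and CPM was taken over all UMIs of the group. Ratios have exact conditional 95% intervals, levels have Poisson intervals and shares have Clopper-Pearson intervals, which cover counting error only. With 1 library per genotype no difference between genotypes was tested. For the segments, an added fit over the 4 group sums with the library as a block used edgeR's quasi-likelihood test and DESeq2. A gene was called at a ratio of at least 1.5-fold with at least 50 UMIs over both groups, and list members needed 20 UMIs.

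Named genes were the 12 highest and 12 lowest with the same sign in both libraries, ranked by the interval bound nearest 0 and leaving out genes with over 25% of UMIs in 1 cell, the 5 highest and 5 lowest of each library alone, receptor genes with at least 20 UMIs, Tcf7, Gzma, Gzmb and Thy1, and up to 4 members of each of 31 lists. Of the 12 highest genes, 1 is not reported here. The rankings omitted receptor segments, clone names and mitochondrial, ribosomal, haemoglobin and Y-linked genes, Xist and Tsix. The members and lists were chosen with earlier results of these data known. The NF-κB and histone lists were chosen after their values were seen.

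Scrublet in scanpy 1.11.5, run in double precision, marked 28 Tcf7KO cells (1.85%) and 8 Tcf7WT cells (0.424%) as doublets; they were kept, and leaving them out is an alternative. Of the marked cells, 1 was Trdv2-2-only and 7 were Trdv5-only, all in Tcf7KO. Other alternatives were the scaling (edgeR 4.0.16 TMM factors and DESeq2 1.42.0 size factors, on the summed counts), the UMI minimum, thinning to 1500 UMIs, the segment threshold and cell filters. Of the symbols, 97.9% matched GENCODE M21, from which coordinates and segment sequences were taken. The scripts were tested on simulated data. Python 3.11.15, numpy 2.4.6, scipy 1.17.1, matplotlib 3.10.9, biopython 1.88 and R 4.3.3 were used.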

Additional observations from a re-analysis of the deposited data

Results flagged for a closer look

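Among genes at least 1.5-fold apart in each library with intervals without 0, 4 stood in opposite directions in Tcf7KO and Tcf7WT. Trappc1, a subunit of the TRAPP trafficking complex, had 104 and 52.5 CPM in Tcf7KO Trdv2-2-only and Trdv5-only cells (log2 ratio 0.98) and 53.5 and 88.4 CPM in the Tcf7WT groups (-0.72). Maz, a zinc finger transcription factor, had 155 and 91.9 CPM in Tcf7KO (0.76) and 84.8 and 141 CPM in Tcf7WT (-0.74). Frg1 had 95.9 and 162 CPM in Tcf7KO (-0.76) and 134 and 85.0 CPM in Tcf7WT (0.65). A130040M12Rik had 451 and 755 CPM in Tcf7KO (-0.74) and 1543 and 833 CPM in Tcf7WT (0.89). The differences between the libraries were not tested, and these genes were chosen after their values were seen.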

How the results depend on the processing

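The groups of the 2 libraries carry no replicate numbers, but Trdv2-2-only and Trdv5-only cells of 1 library form a pair. With the library as a block over these 2 pairs, which differ in genotype and leave 1 residual degree of freedom, edgeR's quasi-likelihood test called 2 genes higher and 19 lower of 3805 at a Benjamini-Hochberg adjusted p under 0.05, with 111 and 132 at an unadjusted p under 0.05. DESeq2 called 0 and 0, with 1 and 16 unadjusted. The 19 genes edgeR called lower included Rrad, Gm11336 and H2A histone genes, for which single cells held a large share of the Trdv5-only UMIs. Of 3940 alternative values of named genes 3470 stayed within the counting interval of the reported ratio, 455 left it and 15 called ratios changed sign, and of 879 list medians 725 stayed within the main quartiles, 149 left them and 5 changed sign. Alternatives with under 5 cells in a group gave no value, which left the Tcf7KO library without cells with a Trac, Trbc1 or Trbc2 UMI out. The cell cycle median of Tcf7KO with at least 2 segment UMIs was not finite and is left out. The causes of the shifts were not tested beyond the smaller numbers of genes or cells that the settings leave.

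Counts at 1.5-fold are given as Tcf7KO higher and lower, Tcf7WT higher and lower, and both libraries higher and lower. They were 2130, 2648, 2146, 2630, 464 and 750 with a minimum of 1 UMI, 561, 723, 564, 601, 51 and 92 with 20 UMIs, and 1, 19, 2, 9, 0 and 4 with 200 UMIs. With an interval without 0 they were 67, 104, 59, 85, 2 and 12. With at least 2 UMIs of the own segment (5, 30, 12 and 23 cells) they were 65, 114, 29, 46, 1 and 10. Grouped on thinned cells (21, 63, 59 and 76 cells) they were 12, 28, 33, 40, 1 and 0, and thinned after grouping 59, 89, 54, 53, 3 and 5. Among cells with a Tcrg-V7 UMI (7, 19, 5 and 15 cells) they were 28, 61, 11, 22, 1 and 5. Among cells without a Thy1 UMI the Tcf7WT counts were 84 and 108 and the counts in both libraries 3 and 10. Without cells with a Trac, Trbc1 or Trbc2 UMI the Tcf7WT counts were 4 and 3. Genes lower in both libraries numbered 10 among cells with a Gzma UMI, 13 without cells with 3 or more proliferation genes, and 14 without the deepest cell of each group. The higher and lower counts in both were 4 and 13 without cycling cells. Genes higher in both numbered 15 with each cell weighing the same and 2 without cells with 2 or more markers of other types.

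Counts of Tcf7KO against Tcf7WT are given as higher and lower in Trdv2-2-only cells, then in Trdv5-only cells. They were 2128, 2995, 2021 and 2703 with 1 UMI, 578, 797, 662 and 775 with 20 UMIs, and 23, 24, 34 and 23 with 200 UMIs. They were 18, 25, 114 and 64 with at least 2 segment UMIs, 36, 32, 48 and 34 grouped on thinned cells, 85, 72, 143 and 93 thinned after grouping, and 22, 14, 58 and 39 with a Tcrg-V7 UMI. In Trdv2-2-only cells they were 138 and 145 without cycling cells, and the lower count was 146 without a Thy1 UMI. The shares with at least 2 segment UMIs were 0.331% and 1.99% in Tcf7KO and 0.636% and 1.22% in Tcf7WT, and on thinned cells 1.41%, 4.22%, 3.58% and 4.61%.

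With at least 2 segment UMIs the Tcf7KO ratios of Cd160 (-0.15), Nfkbia (0.55), Arid4b (0.28), Tnfaip3 (0.23) and Bcl2l11 (0.66) changed sign. Grouped on thinned cells, so did those of Nfkbia (0.58), Arid4b (0.58) and Tnfaip3 (0.12) in Tcf7KO and of Nufip2 (-0.14) and Cited2 (-0.013) in Tcf7WT. In Tcf7WT, Xcl1 was 0.065 without a Thy1 UMI, and with a Tcrg-V7 UMI Xcl1 was 0.24, Klra5 1.95 and Id3 -0.11. Tpi1 was 0.045 in Tcf7WT without cells with 2 or more markers of other types. The cell cycle median of Tcf7KO was 0.076 thinned after grouping, 0.21 in cells with 500 to 3500 genes, 0.12 without cycling cells, 0.19 with a Tcrg-V7 UMI and 0.14 without cells with 3 or more proliferation genes.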
